A study of Mus musculus with 5 samples.

Results

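The genes described here are 34 that feed translation with charged tRNAs and amino acids. They are 20 cytosolic aminoacyl-tRNA synthetase genes and 14 genes for enzymes of serine, asparagine, proline and folate one-carbon metabolism, with 2 transaminases among the latter. They were taken by name from the 39179 genes of the deposited count table, as a list chosen with earlier results of these data known. All 34 were matched, Mars1 under its older symbol Mars, and all 34 passed the filter on low counts that left 13000 genes to test. RNA was sequenced from TER119+ erythroid cells sorted from C57BL/6 mouse fetal liver at 14.5 days of gestation. The 3 control libraries came from Csnk2b+/+ Vav+/Cre embryos and the 2 KO libraries from Csnk2bfl/fl Vav+/Cre embryos. Both groups thus carried the Vav-Cre transgene, whose Vav1 promoter drives Cre recombinase in all blood-forming cells, and they differed in whether Csnk2b was floxed. Csnk2b encodes the beta subunit of CK2, a protein kinase, which regulates the catalytic subunits. The question addressed is which transcripts differ in fetal erythroid cells when Csnk2b is deleted in blood-forming cells.

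An aminoacyl-tRNA synthetase joins an amino acid to its tRNA, and several cytosolic synthetases sit together in a multi-synthetase complex held by scaffold proteins. Serine is made from a glycolytic intermediate by the enzymes of Phgdh, Psat1 and Psph, and serine hydroxymethyltransferases then pass a carbon from serine to folate for nucleotide synthesis. Many of these genes are known targets of ATF4, a transcription factor whose translation increases when eIF2 alpha is phosphorylated, and in erythroid cells the heme-regulated kinase encoded by Eif2ak1 is the best known source of that signal.

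The libraries held 13187094 to 15366021 counts, and 18446 to 19037 genes had at least 1 count. Values are CPM, that is counts scaled to a fixed TMM-adjusted library size, at which 1 CPM was 13.0 to 15.5 counts. Csnk2b stood at 186, 186 and 169 CPM in the controls and at 112 and 95.6 CPM in the KO libraries, lower in both than in any control (log2 fold change -0.80 ± 0.09 SE, edgeR adjusted p = 0.0018). The erythroid label was met by its markers: 11 of 12 were matched and tested, with Slc4a1, the red cell anion exchanger, at 15773 to 19424 CPM and Gata1, the erythroid transcription factor, at 465 to 525 CPM, and none of the 11 passed the test in edgeR (at an unadjusted p below 0.05, 0 were higher and 3 lower; DESeq2 called 2 lower and limma-voom 0). Of 12 macrophage markers, 11 were tested and 5 fell in KO, with Adgre1, C1qc, Vcam1 and Marco among them. Of all genes tested, 1.83% fell. At an unadjusted p below 0.05 in edgeR, 10 of the 11 were lower and 0 higher. DESeq2 called 4 of them lower and limma-voom 5. The summed level of the list was 200.2 to 234 CPM in controls and 146 to 177 CPM in KO. No marker of the list was at 0 in all libraries. Markers of hepatocytes (10 tested), granulocytes (9) and megakaryocytes (7) had none past the threshold in edgeR (at an unadjusted p below 0.05 there were 0, 2 and 3 respectively; DESeq2 called 1 megakaryocyte marker and limma-voom none of the 3 lists). Their summed levels overlapped between the groups except for megakaryocyte markers, at 114 to 122 CPM in controls and 124 and 161 CPM in KO. The part of these cells in the results below was not tested. In such sorted populations a lower share of cells that make an RNA and less RNA per cell cannot be told apart. The labels name each library an embryo with a number and do not say whether embryos were pooled, so the p-values rest on the variation among these samples, which may be technical in part.

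In the KO cells 7 of the 14 enzyme genes and 5 of the 20 synthetase genes rose. Among the genes whose control counts alone passed the low-count filter, the largest rises were those of Gpt2 and Pycr1. These encode mitochondrial enzymes of alanine and proline metabolism. In controls they were among the lowest of the 34 genes, at 0.43 and 1.60 CPM per kb of exon. Of the 34 genes, 12 rose at an edgeR adjusted p below 0.05, none fell and 22 did not pass. One of the 12, Aldh1l2, was tested only because its KO counts passed the low-count filter, so it could enter only by being higher in KO; of the other 33 genes, 11 rose. Over all 13000 genes 5.15% rose and 1.83% fell. At an unadjusted p below 0.05, 20 of the 34 were higher and 0 lower; DESeq2 called 13 higher and 0 lower (4.57% of all genes rose), and limma-voom 10 and 0 (4.71%). Gpt2 rose 3.97-fold and Pycr1 2.27-fold, and 9 others rose 1.28-fold to 1.58-fold. Aldh1l2, with 2 counts in each control, is described with its counts further on. The median log2 fold change was 0.21 over the 34 genes and 0.01 over all genes tested. Both KO libraries lay above all 3 controls in 21 of the 34 genes and below them in none, against 21.9% and 19.3% of all genes tested.

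**Figure D1:**
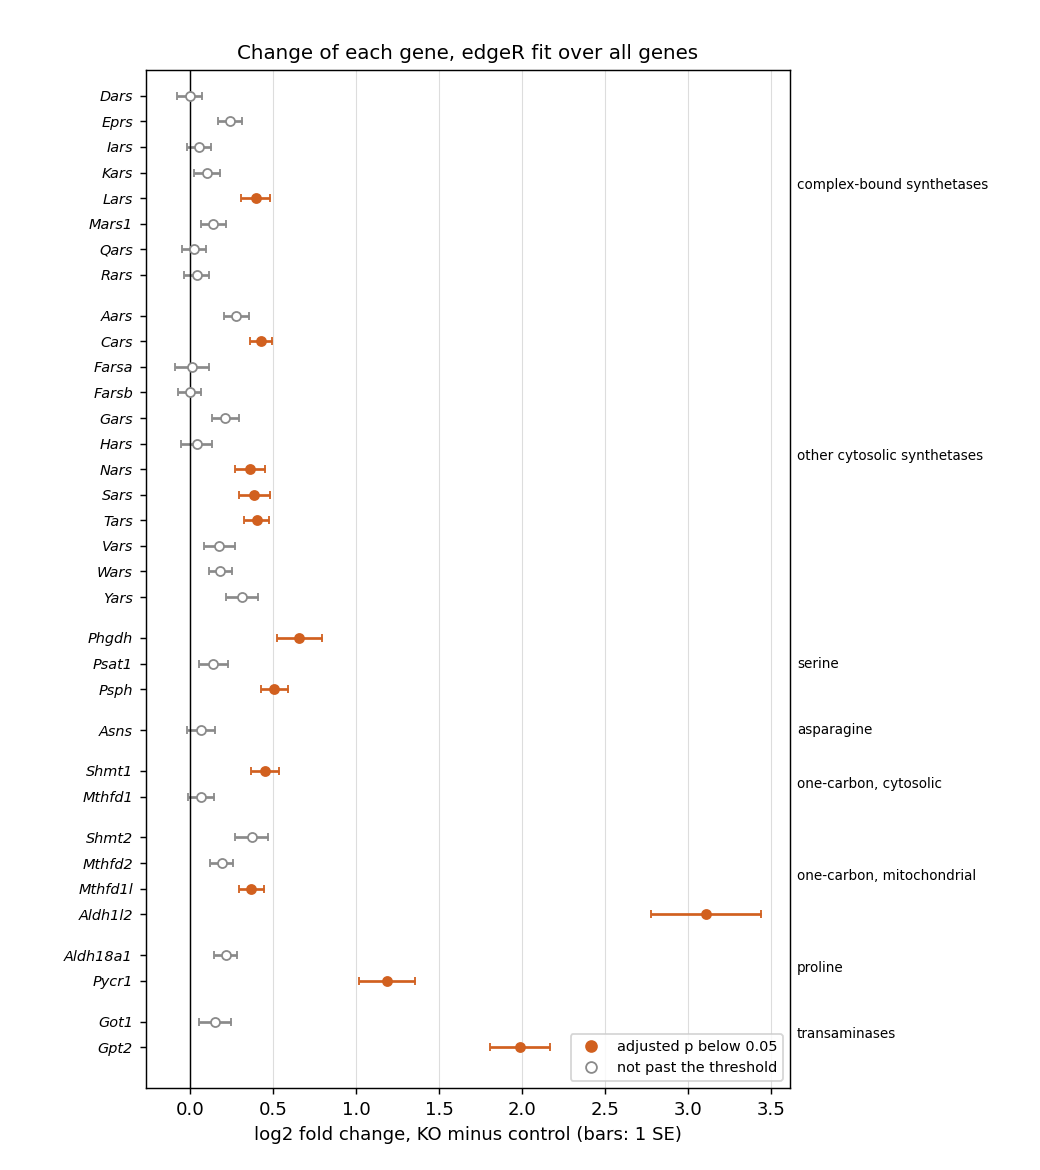
Log2 fold change (KO minus control) of each of the 34 genes on the x axis, grouped by role, with bars of 1 SE from the edgeR fit over all genes. Filled orange points passed an adjusted p of 0.05. Aldh1l2, Gpt2 and Pycr1 stand at 3.11, 1.99 and 1.18, and every synthetase lies at or below 0.43.

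The calls depended on the controls kept. With control replicate 1, 2 or 3 left out, 3, 4 and 5 of the 34 genes rose, where 1.79%, 1.62% and 2.63% of all genes tested rose. Without KO replicate 1 or 2 it was 18 and 8 (12.7% and 4.03% of all genes), in fits that rest on a lone KO library assumed to vary like the controls. With no filter on low counts 4 rose (1.11%) and with the replicate number as a block 8 (5.4%). In the block fit control replicate 3 has no KO library of its number, so it does not enter the fitted difference. Gpt2 and Pycr1 rose in each of the fits without 1 control, with adjusted p-values in edgeR of 0.0031 to 0.012 and 0.020 to 0.041. Aldh1l2 is also counted in these fits, but its KO counts alone put it among the genes tested there. Cars rose in 2 of those 3 and had an adjusted p of 0.052 without control replicate 1, and Psph rose in 1 of them.

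Many ATF4 targets are known to carry a C/EBP-ATF response element near the start of the gene, so the promoters were searched for its core, TGATGNAA (N is any base), on both strands. RefSeq promoter windows on GRCm38.p6, from 250 bases before the start to 50 bases from it on, were found for 26 of the 34 genes, in 27 windows because Psat1 has 2. Cars, Hars, Lars, Nars, Rars, Vars, Wars and Aldh1l2 had no entry. Of the 27 windows, 8 (29.6%) held the core, against 3.97% of all 32851 windows. The stricter form TGATGCAA, which the core includes, was in 6 of the 27 (22.2%) and in 0.895% of all windows. Matches are shown from genes that passed the test and from genes that did not. Each is printed with 10 bases on either side, turned so that the core, in capitals, reads in the same direction.
Pycr1 (chr11:120643834-120643861, minus strand): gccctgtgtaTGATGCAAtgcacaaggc
Tars (chr15:11399656-11399683, plus strand): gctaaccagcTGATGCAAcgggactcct
Iars (chr13:49682127-49682154, minus strand): cgtctggaggTGATGCAAtactgacagt
Yars (chr4:129189896-129189923, plus strand): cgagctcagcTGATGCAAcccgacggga
Got1 (chr19:43524690-43524717, plus strand): gaggcttgtaTGATGCAAccaatgcaat
Asns (chr6:7693215-7693242, minus strand): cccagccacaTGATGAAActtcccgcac
Gars (chr6:55037961-55037988, minus strand): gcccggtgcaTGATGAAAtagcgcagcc
Of the genes whose match is printed, Pycr1 and Tars rose and Asns, Gars, Got1, Iars and Yars did not pass the test. A match was present in 2 of 8 windows of genes that rose and in 6 of 19 windows of genes that did not pass. A match describes the letters and shows no binding, and a window without one says only that these letters are not in it. The whole windows of Pycr1 and Tars, which rose, and of Asns, which did not pass, are given below with the core in capitals.
Pycr1 promoter (chr11:120643699-120643998, minus strand): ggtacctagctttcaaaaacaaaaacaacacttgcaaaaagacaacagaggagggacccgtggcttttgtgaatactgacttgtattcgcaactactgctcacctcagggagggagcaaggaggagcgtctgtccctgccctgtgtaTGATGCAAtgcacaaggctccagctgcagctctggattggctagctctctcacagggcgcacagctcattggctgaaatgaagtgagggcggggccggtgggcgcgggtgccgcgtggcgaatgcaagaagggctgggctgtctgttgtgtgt
Tars promoter (chr15:11399609-11399908, minus strand): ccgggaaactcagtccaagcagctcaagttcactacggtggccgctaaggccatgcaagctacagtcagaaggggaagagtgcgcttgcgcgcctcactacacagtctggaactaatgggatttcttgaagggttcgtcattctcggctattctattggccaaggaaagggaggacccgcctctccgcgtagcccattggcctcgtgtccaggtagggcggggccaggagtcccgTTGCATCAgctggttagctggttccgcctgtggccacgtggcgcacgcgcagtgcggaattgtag
Asns promoter (chr6:7693160-7693459, minus strand): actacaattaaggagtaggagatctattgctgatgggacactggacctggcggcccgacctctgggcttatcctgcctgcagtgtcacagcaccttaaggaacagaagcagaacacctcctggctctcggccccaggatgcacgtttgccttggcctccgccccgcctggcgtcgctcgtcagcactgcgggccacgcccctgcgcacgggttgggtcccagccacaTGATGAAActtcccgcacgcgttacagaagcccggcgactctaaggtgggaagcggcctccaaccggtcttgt
The core began 103 bases before the start in Pycr1, 23 before it in Asns and 15 before it in Tars, counted from the end of the match farthest upstream.

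Levels per length, in CPM per kb of exon (the union of all annotated transcripts), differed widely among these genes in controls. Asns was the highest, at 212 CPM per kb, followed by Hars at 129, Vars at 128, Gars at 127 and Nars at 115. Aldh1l2 at 0.019, Gpt2 at 0.43, Pycr1 at 1.60, Shmt1 at 7.24 and Psph at 10.1 CPM per kb were the lowest. Gpt2, Pycr1, Shmt1 and Psph, whose control counts alone passed the filter, rose. With the genes parted at their median level over all 5 libraries (39.2 CPM per kb), 9 of the 17 lower genes, Aldh1l2 included, and 3 of the 17 higher ones rose. Among all genes tested that have an exon length, 5.43% rose below that level and 3.14% above it.

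**Figure D2:**
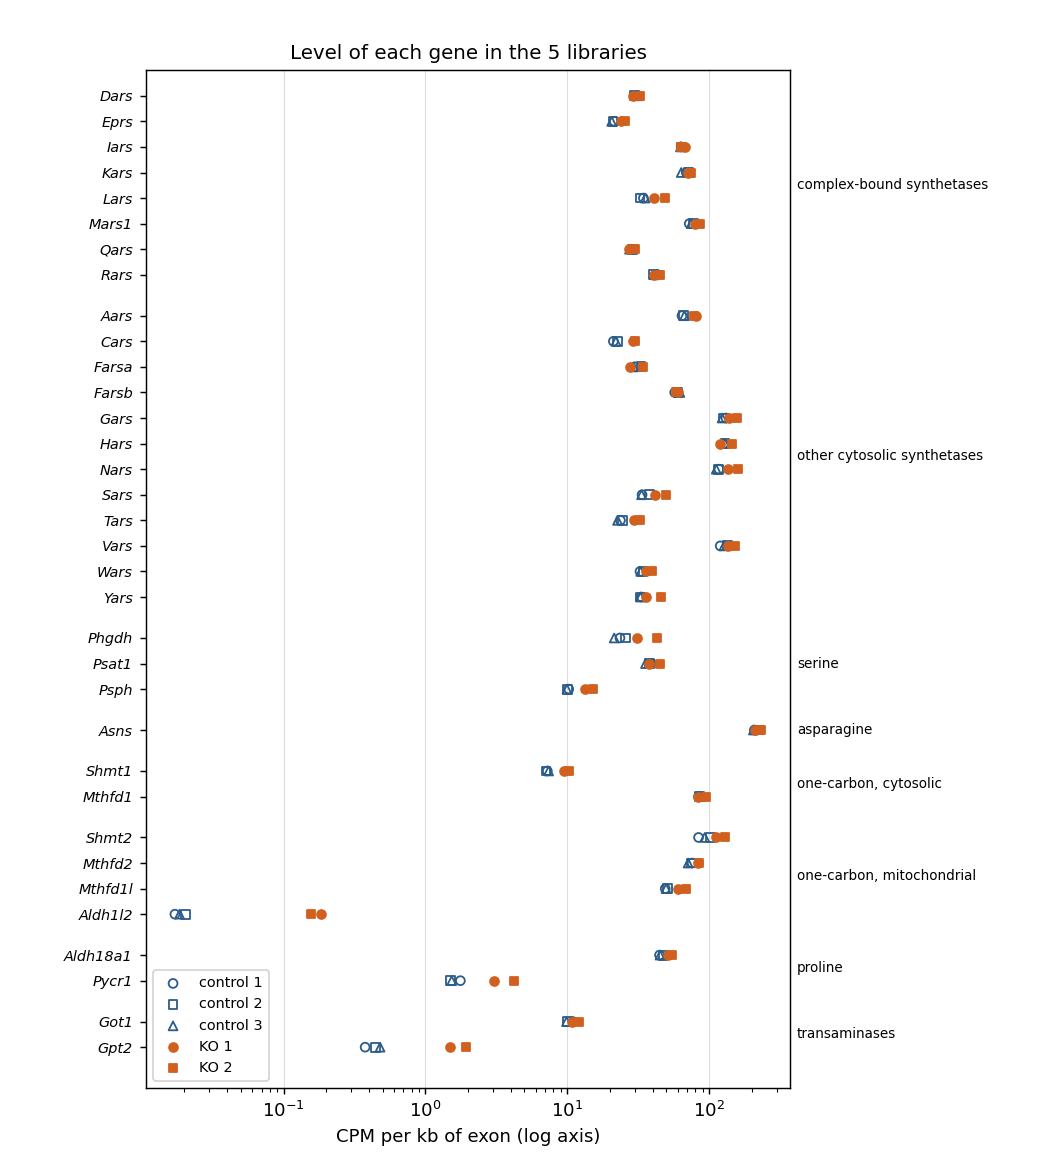
Level of each of the 34 genes in CPM per kb of exon (log axis) in the 3 control libraries (open blue) and the 2 KO libraries (filled orange). The KO points lie clear of the controls for Aldh1l2, Gpt2 and Pycr1, the genes at 0.019, 0.43 and 1.60 CPM per kb in controls, and close to or among them for Asns, at 212 CPM per kb.

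Of the 8 synthetases of the multi-synthetase complex, 1 rose, where 5.15% of all genes tested rose. Lars, which charges leucine tRNA, was at 185, 175 and 190 CPM in the controls and at 219.7 and 262 CPM in the KO libraries. Both KO values lay above all controls, and the means were 184 CPM ± 7.71 (SD, n = 3) and 241 CPM ± 30.1 (SD, n = 2), 1.31-fold higher in KO (edgeR adjusted p = 0.031, and 0.090 to 0.14 without any 1 control). Eprs, the fused synthetase for glutamate and proline, was at 373 to 389 CPM in controls and at 434 and 465 CPM in KO. Its groups did not overlap and its log2 fold change was 0.24 ± 0.07 (SE, edgeR adjusted p = 0.091). Mars1, for methionine, also kept its groups apart, at 248 to 266 CPM and at 271 and 295 CPM, with a log2 difference of 0.14 ± 0.07 (edgeR adjusted p = 0.295). The other 5 overlapped between groups. Dars (aspartate), Iars (isoleucine), Kars (lysine), Qars (glutamine) and Rars (arginine) had log2 fold changes from -0.0048 for Dars to 0.10 for Kars, each with an SE of 0.07 to 0.08. Mars1 shares 68 bases of exon with Ddit3, a stress transcription factor gene on the opposite strand that rose (log2 fold change 0.49), and reads there cannot be assigned without knowing whether counting used strand.

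The scaffold genes of that complex did not pass the test. Aimp1, Aimp2 and Eef1e1 had log2 fold changes of 0.12, -0.14 and -0.02, with 0 of the 3 past an unadjusted p of 0.05 in edgeR and 0 called by DESeq2 or limma-voom.

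Of the 12 other cytosolic synthetases, 4 rose, by 1.28-fold to 1.35-fold, where 5.15% of all genes tested rose. Cars, for cysteine, was at 139, 148 and 145 CPM in controls and at 192 and 196 CPM in KO, so that both groups were tight and far apart (1.35-fold, edgeR adjusted p = 0.0071). Tars, for threonine, was at 140.0, 144 and 134 CPM in controls and at 173 and 194 CPM in KO (1.32-fold, edgeR adjusted p = 0.016). Sars, for serine, was at 173, 195 and 172 CPM in controls and at 214 and 256 CPM in KO (1.31-fold, edgeR adjusted p = 0.042). Each of the 3 had both KO libraries above every control, as 21.9% of all genes tested did. Nars, for asparagine, was at 511, 506 and 489 CPM in controls and at 589 and 698 CPM in KO (1.28-fold). Its edgeR adjusted p of 0.0495 was just inside the threshold, and it missed it in 10 of the 12 alternative fits. Without any 1 control the adjusted p-values were 0.15 to 0.20 for Nars, 0.085 to 0.17 for Sars and 0.070 to 0.090 for Tars.

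The other 8 free synthetases did not pass the test. Aars, for alanine, came nearest. It was at 599, 615 and 622 CPM in controls and at 750.2 and 733 CPM in KO, with a log2 fold change of 0.28 ± 0.08 (SE, edgeR adjusted p = 0.061), and DESeq2 called it higher (adjusted p = 0.016). Yars (tyrosine), Gars (glycine) and Wars (tryptophan) also had both KO libraries above all controls, as 21.9% of all genes tested did. Their log2 fold changes were 0.31 ± 0.10, 0.21 ± 0.08 and 0.18 ± 0.07. Yars shares 30 bases of exon with C77080 on the opposite strand, at 1.49 CPM in controls and 8.59 CPM in KO. Vars, for valine, overlapped between groups, at 673 to 759 CPM and at 758 and 855 CPM. It lies on chromosome 17, 99.9 kb from Csnk2b. In the stretch within 5 Mb of Csnk2b, 29 of the 164 genes tested rose and 3 fell, Csnk2b itself among the 3. Over all genes tested 5.15% rose and 1.83% fell. Farsa and Farsb, which encode the subunits of the phenylalanine enzyme, had log2 fold changes of 0.01 ± 0.10 and -0.01 ± 0.07, and Hars, for histidine, 0.04 ± 0.09. Farsb at 150.1 to 163 CPM in controls and 154 and 159 CPM in KO stayed within the controls' range. Hars and Farsa had 1 KO library on each side of the controls: Hars was at 310 to 317 CPM in controls and at 290.3 and 355 CPM in KO.

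The synthetases of mitochondria are encoded by separate genes, apart from those shared by both compartments. Of 17 tested, 1 rose and 16 did not pass, and the median log2 fold change was 0.03 beside 0.18 for the 20 cytosolic genes. Over all genes tested, 5.15% rose in edgeR and the median was 0.01. The difference between the lists was not tested. The member that rose, Vars2, was at 37.9, 42.2 and 42.2 CPM in controls and at 48.6 and 67.2 CPM in KO (1.42-fold, edgeR adjusted p = 0.0497). Vars2 also lies within 5 Mb of Csnk2b, and it did not pass without any 1 control (adjusted p = 0.11 to 0.18) or with limma-voom (0.061).

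Among the 3 enzymes of serine synthesis, the first and the last rose, where 5.15% of all genes tested rose. Phgdh, for the dehydrogenase that opens the pathway, was at 58.5, 64.5 and 53.3 CPM in controls and at 77.6 and 108 CPM in KO. Means were 58.8 CPM ± 5.58 (SD, n = 3) in controls and 92.6 CPM ± 21.2 (SD, n = 2) in KO, 1.58-fold higher (edgeR adjusted p = 0.022, and 0.071 to 0.099 without any 1 control). Psph, for the phosphatase that releases serine, was at 44.4, 43.7 and 43.1 CPM in controls and at 58.0 and 66.1 CPM in KO (1.42-fold, edgeR adjusted p = 0.0087). The controls lay close together and both KO libraries above them. Psph shares 452 bases of exon with Cct6a, a chaperonin gene on the opposite strand at 304 CPM in controls and 317 CPM in KO, whose log2 fold change was 0.06. Psat1, the aminotransferase of the middle step, was at 166, 162 and 152 CPM in controls and at 161 and 191 CPM in KO, so the groups overlapped (log2 fold change 0.14 ± 0.09, edgeR adjusted p = 0.37).

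Asns, which makes asparagine from aspartate and glutamine, did not pass. It was at 571, 609 and 562 CPM in controls and at 579 and 637 CPM in KO, with a log2 fold change of 0.07 ± 0.08 (SE, edgeR adjusted p = 0.68). The groups overlapped.

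In the folate cycle, Shmt1 and Mthfd1 encode the cytosolic enzymes and Shmt2, Mthfd2, Mthfd1l and Aldh1l2 the mitochondrial ones. Shmt1, the cytosolic serine hydroxymethyltransferase, was at 28.1, 27.5 and 28.7 CPM in controls and at 36.6 and 40.2 CPM in KO (1.37-fold, edgeR adjusted p = 0.015, and 0.062 to 0.081 without any 1 control). It shares 184 bases of exon with Smcr8 on the opposite strand, whose log2 fold change was -0.10. Shmt2 shares 32 bases with Ndufa4l2 on the opposite strand, at 0.19 CPM in controls and 1.26 CPM in KO. Mthfd1, a trifunctional folate enzyme, overlapped between groups at 375 to 384 CPM and at 374 and 422 CPM. All 4 mitochondrial genes had both KO libraries above all controls, as 21.9% of all genes tested did. Of the 4, 2 rose, where 5.15% of all genes tested rose. Aldh1l2, counted among the 4 and the 2, passed the low-count filter only through its KO counts and so could enter only by being higher in KO. Mthfd1l, which releases formate from mitochondria, was at 218, 225 and 221 CPM in controls and at 268 and 303 CPM in KO (1.29-fold, edgeR adjusted p = 0.023, and 0.094 to 0.11 without any 1 control). Shmt2, the mitochondrial serine hydroxymethyltransferase, was at 262, 317 and 290.1 CPM in controls and at 347 and 400.3 CPM in KO. Its log2 fold change of 0.37 ± 0.10 equalled that of Mthfd1l at this precision, but its controls spread more widely and its edgeR adjusted p was 0.059 (0.012 with DESeq2). Mthfd2, the dehydrogenase between them, showed a log2 difference of 0.19 ± 0.07 (edgeR adjusted p = 0.14).

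Aldh1l2, which oxidises 10-formyltetrahydrofolate in mitochondria, rose from near the limit of detection. It had 2 counts in each control library and 18 in each KO library, that is 0.13 to 0.15 CPM and 1.17 and 1.38 CPM. The ratio of the summed counts at equal depth was 9.09, with an exact 95% binomial interval of 3.79 to 26.4 that covers counting error only. The fitted rise was 8.62-fold (edgeR adjusted p = 0.0016). Aldh1l2 passed the low-count filter only through the KO libraries, a stricter filter of 5 CPM in 2 libraries removed it, and DESeq2 gave no adjusted p for it. Its exons on chromosome 10 (83487450 to 83534140, mm10, minus strand) share 1056 bases with D10Wsu102e on the opposite strand, which was at 44.2 CPM in controls and 47.1 CPM in KO.

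Both proline genes had both KO libraries above all controls, as 21.9% of all genes tested did, and Pycr1 rose. This gene for a mitochondrial pyrroline-5-carboxylate reductase, the last step to proline, lies on chromosome 11 from 120635712 to 120643769 (mm10, minus strand). It was at 6.95, 5.95 and 6.03 CPM in controls and at 12.0 and 16.7 CPM in KO. The 2.27-fold rise passed in all 12 alternative fits (edgeR adjusted p = 0.0045). Aldh18a1, for the enzyme that makes the precursor from glutamate, was at 182 to 193 CPM and at 209.7 and 222 CPM (log2 fold change 0.21 ± 0.07, edgeR adjusted p = 0.099).

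Of the transaminases, Gpt2 rose and Got1 did not pass. Gpt2, the mitochondrial alanine transaminase, lies on chromosome 8 from 85492576 to 85527560 (mm10, plus strand). It was at 2.12, 2.52 and 2.70 CPM in controls and at 8.45 and 10.9 CPM in KO, from 33 to 39 counts against 110 and 168. Means were 2.45 CPM ± 0.30 (SD, n = 3) in controls and 9.67 CPM ± 1.72 (SD, n = 2) in KO. The 3.97-fold rise had the smallest adjusted p of the 34 genes (6.7e-04 in edgeR) and passed in all 12 alternative fits. Got1, the cytosolic aspartate transaminase, was at 25.1 to 27.9 CPM and at 27.3 and 30.7 CPM, with overlapping groups (log2 fold change 0.15 ± 0.09). Got2 and Gpt, the partner genes in the other compartment, had log2 fold changes of 0.02 ± 0.07 and -0.14 ± 0.15.

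The KO libraries differed from each other in these genes. KO replicate 2 was above KO replicate 1 in 30 of the 34 genes and in 11 of the 12 that rose, Aldh1l2 being the exception. Among all genes tested it was above in 50.6%, and among all 669 genes that rose in 58.0%. Measured against the control mean, the median log2 ratio of the 34 genes was 0.15 in KO replicate 1 and 0.26 in KO replicate 2. The synthetase genes summed to 5471 to 5633 CPM in controls and to 6060 and 6669 CPM in KO replicates 1 and 2, and the enzyme genes to 2200 to 2320 CPM and to 2451 and 2746 CPM. The genes share their libraries, so these counts describe 2 libraries and not 34 observations.

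**Figure D3:**
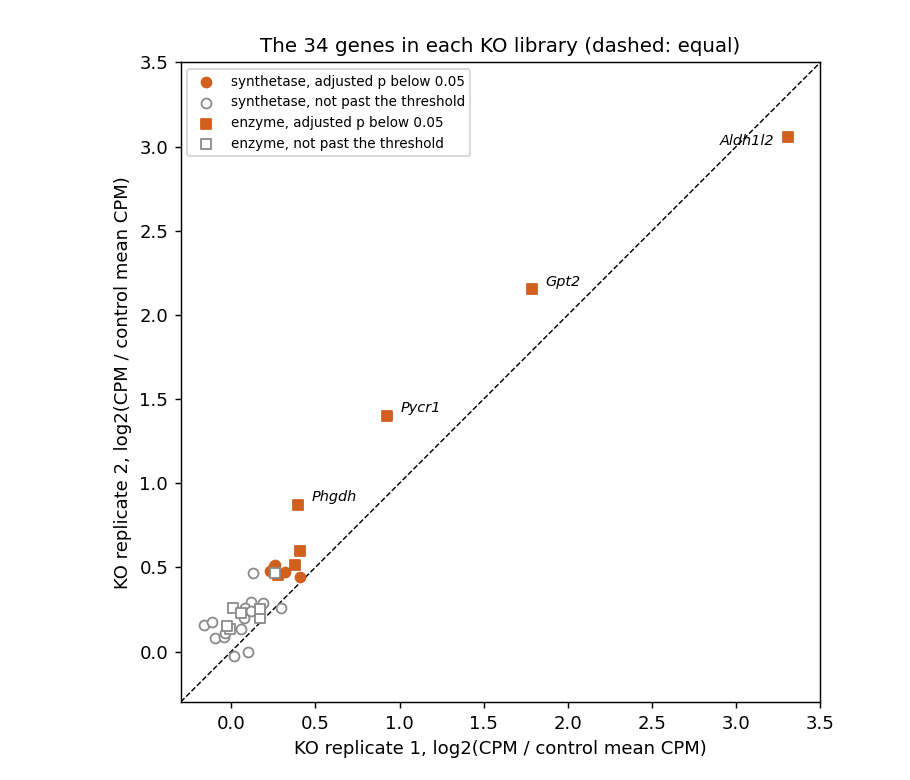
Log2 ratio of each KO library's CPM to the control mean CPM for the 34 genes, KO replicate 1 on the x axis and KO replicate 2 on the y axis, with the line of equal values dashed. Of the 34 points 30 lie above the line, and Aldh1l2 lies below it.

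The wider pathway moved in part. Of 21 regulators and targets of the ATF4 pathway, 20 were tested, 14 rose and none fell (at an unadjusted p below 0.05 in edgeR 15 were higher and 1 lower; DESeq2 and limma-voom each called 13 higher and 0 lower). Atf3, Ddit4 and Nupr1, among those that rose, passed the low-count filter only through the KO libraries, and of the other 17 genes 11 rose. Of all genes tested, 5.15% rose and 1.83% fell in edgeR, 4.57% rose in DESeq2 and 4.71% in limma-voom. Atf4 itself was at 458, 502 and 532 CPM in controls and at 619 and 604 CPM in KO, above all controls but not past the threshold (log2 fold change 0.30 ± 0.09 SE, edgeR adjusted p = 0.073, and 0.026 with DESeq2). The members with the smallest p were Trib3, a pseudokinase, at 3.86 to 5.18 CPM and at 49.0 and 83.3 CPM, Cebpb, a C/EBP factor, at 7.47 to 8.43 CPM and at 17.6 and 19.2 CPM, and Atf5, an ATF4-related factor, at 10.7 to 13.5 CPM and at 47.0 and 97.5 CPM. Their folds were 15.4, 2.32 and 6.07. In fits that left out control replicate 1 or 2, 8 and 9 genes of the list rose, where 1.79% and 1.62% of all genes tested rose. Of the genes for kinases of eIF2 alpha, Eif2ak2, the RNA-sensing kinase, rose, with a log2 fold change of 1.21. Eif2ak1, Eif2ak3 and Eif2ak4 did not pass, at -0.14, -0.05 and -0.20. Gcn1, for an activator of 1 such kinase, rose, with a log2 fold change of 0.36. These 5 genes were named after their values were seen.

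Of 21 other folate and serine-glycine genes, 19 were tested, 0 rose and 1 fell (at an unadjusted p below 0.05 in edgeR 3 were higher and 4 lower; DESeq2 called 1 higher and 1 lower, and limma-voom 0 and 1). The member that fell was Tyms, the folate-dependent thymidylate synthase, at 141 to 150 CPM in controls and at 123 and 114 CPM in KO (log2 fold change -0.30 ± 0.07 SE, edgeR adjusted p = 0.040); it did not pass with the replicate block (0.083) or without any 1 control (0.11 to 0.15). Of 16 other amino acid enzymes, 15 were tested, 2 rose and 0 fell (at an unadjusted p below 0.05 in edgeR 4 were higher and 2 lower; DESeq2 called 1 higher and 1 lower, and limma-voom 2 and 0). Bcat1, the cytosolic branched-chain aminotransferase, was at 0.15 to 0.51 CPM in controls and at 1.23 and 1.56 CPM in KO, and passed the low-count filter only through the KO libraries. Prodh, which degrades proline, was at 4.42 to 6.50 CPM and at 8.61 and 10.9 CPM. Bcat1 missed the threshold without control replicate 2 (adjusted p = 0.066), and Prodh without any 1 control (0.080 to 0.12). Over all genes tested, 5.15% rose and 1.83% fell in edgeR.

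**Figure D4:**
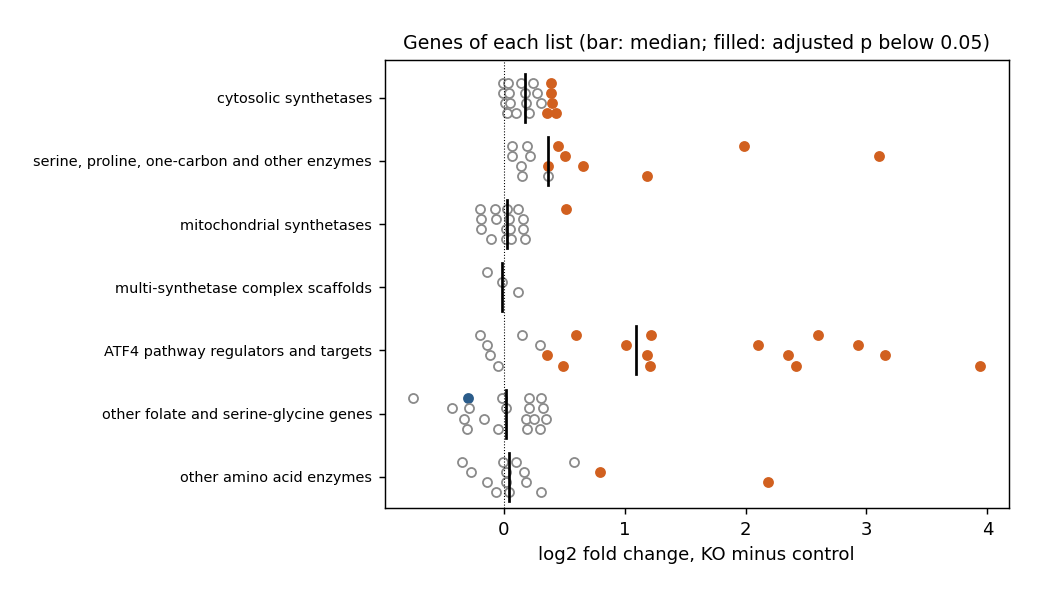
Log2 fold change (KO minus control) of the genes tested in each list, 1 point a gene, with the median as a black bar. Filled orange points rose and the filled blue point, Tyms, fell at an adjusted p of 0.05. The median is 0.18 for cytosolic and 0.03 for mitochondrial synthetases, 0.37 for the 14 enzyme genes and 1.10 for the ATF4 pathway. The enzyme median includes Aldh1l2 and the ATF4 pathway median Atf3, Ddit4 and Nupr1, which passed the low-count filter only through the KO libraries.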

How the data were processed

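RNA was measured by sequencing in 5 libraries, 3 control and 2 KO, grouped by their titles. The authors deposited raw counts per Ensembl gene, 1 column a library. The submitters' processing notes name cutadapt, STAR, Bowtie, HTSeq and build mm10 (tool versions, strand and the handling of multi-mapping reads: not given in the sources used here). Of 39179 identifiers, 37693 matched a symbol in GENCODE M21 (GRCm38), which also gave positions and union exon lengths, which may differ from the gene models the authors counted over.

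KO was tested against control in all 13000 genes that edgeR's filterByExpr kept, with edgeR 4.0.16 in R 4.3.3 (TMM, glmQLFit and glmQLFTest, group only, two-sided), and p-values were Benjamini-Hochberg adjusted over those genes with a threshold of 0.05. The fit had 3 residual degrees of freedom and a common biological coefficient of variation of 8.67%. The steps were tested on simulated counts. SE is the log2 fold change divided by the root of F. CPM is counts over the TMM-scaled library size. Reads carry no molecular identifiers, so counting intervals understate the error.

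The 34 genes and the other lists were chosen with earlier results of these data known. Every one of the 34 is named. In the other lists up to 3 with the smallest p past the threshold are named, beside Csnk2b and Atf4. Where none passed in a pathway list, the gene most abundant per kb of exon in controls is named. Slc4a1, Gata1, C1qc, Ddit3, Aimp1, Eef1e1, Got2, Gpt, Atf3, Ddit4 and Nupr1 are named beyond that rule, after their values were seen. So are those genes overlapping a member that are named. Alternatives were RLE scaling, scaling that leaves out globin and mitochondrial genes, the DESeq2 1.42.0 Wald test, limma-voom (limma 3.58.1), no filter, at least 5 CPM in 2 libraries, the replicate number as a block, and each library left out. Another macrophage marker and the promoter matches of another gene are not reported here.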

Additional observations from a re-analysis of the deposited data

How the results depend on the processing

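No gene of the 34 fell in any of the 12 alternative fits, and their median log2 fold change stayed between 0.15 (without KO replicate 2) and 0.24 (without KO replicate 1). The number that rose was 8 to 13 under RLE scaling, scaling without globin and mitochondrial genes, DESeq2, limma-voom, the filter of at least 5 CPM in 2 libraries and the replicate block, and 4 with no filter on low counts; leaving out a library gave 3 to 18. All genes called numbered 288 with no filter, against 907, and 241 to 2956 without a library. Fits without a KO library rest on a lone KO library assumed to vary like the controls. Csnk2b passed in all 12. With no filter, 0 mitochondrial synthetases, 7 ATF4 pathway genes and 0 other amino acid enzymes rose and 0 folate genes fell. At 5 CPM, 9 ATF4 pathway genes and 1 other amino acid enzyme rose. With DESeq2, 1 folate gene and 1 other amino acid enzyme rose and 1 of the latter fell; 1 of them fell also with RLE scaling and with scaling without globin and mitochondrial genes. With limma-voom 0 mitochondrial synthetases rose, and with the replicate block 0 folate genes fell. Without 1 library, those that rose numbered 0 to 2 mitochondrial synthetases, 8 to 15 ATF4 pathway genes, 0 to 4 folate genes and 0 to 4 other amino acid enzymes, and those that fell 0 to 2, 0 to 3 and 0 to 2 of the last 3 lists. The share of all genes tested that rose shifted too, from 5.15% in the main fit to 1.11% with no filter and 1.62% to 2.63% without 1 control. It was 4.57% with DESeq2, 4.71% with limma-voom and 5.4% with the replicate block. All genes called, in both directions, numbered 917 with RLE scaling, 918 with scaling without globin and mitochondrial genes and 717 at 5 CPM. The cause of these shifts was not tested.

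Replicate numbers are shared by the groups, but nothing says that they pair embryos. Deviations of same-numbered libraries correlated at 0.0016 and 0.042, so the numbers were not taken to pair them. With the replicate block 8 of the 34 genes rose, and 873 of all genes were called.

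Signs near 0 were not stable. With a library left out, log2 fold changes ran from -0.10 to 0.058 for Dars, -0.023 to 0.096 for Iars, -0.049 to 0.063 for Qars, -0.042 to 0.086 for Rars, -0.17 to 0.14 for Farsa, -0.047 to 0.022 for Farsb, -0.12 to 0.15 for Hars, -0.0094 to 0.11 for Asns and -0.030 to 0.13 for Mthfd1. With the replicate block Dars was at 0.008, Farsb at 0.023 and Farsa at -0.032. Farsa was at -0.0023 with RLE scaling, -0.008 with scaling without globin and mitochondrial genes and -0.0025 with DESeq2. Depth limits Aldh1l2, at 2 counts in each control.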
